A study of Homo sapiens with 3 samples.

Results

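BHLHE40 and CIART are clock genes whose products repress transcription, and the CRY1 peaks around them were described here. Chromatin immunoprecipitation followed by sequencing (ChIP-seq) of CRY1 was performed in C4-2, an established human prostate cancer line, kept in hormone-proficient medium. The series held 2 CRY1 immunoprecipitates and 1 input library of chromatin that was not immunoprecipitated. All 3 were labelled Veh (vehicle), and no treated group, time course or cells lacking CRY1 were analysed here. The authors called peaks on both immunoprecipitates combined, so each peak has a pooled value, no replicate error and no test between replicates. A peak was taken as a member if its summit, the position of strongest signal, lay inside the body of BHLHE40 or CIART or within 100 kb of it in the GENCODE annotation of hg19 (GRCh37). This rule gave 3 peaks at BHLHE40 and 2 at CIART, which are 5 of the 2551 peaks deposited. Percentiles and shares below are over the 2549 peaks on chromosomes.

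The clock is a feedback loop in which CLOCK and BMAL1 activate genes through E-boxes, the sequence CACGTG, and the products of some of these genes repress them in turn. CRY1, a cryptochrome, does not itself recognise an E-box but is held at E-boxes through CLOCK and BMAL1. The paper also cites mouse work in which CRY1 binding differed in pattern from that of CLOCK and BMAL1. BHLHE40 (also DEC1) is a basic helix-loop-helix repressor that binds E-boxes directly and so competes with CLOCK and BMAL1, and it is also known as a hypoxia-responsive gene. CIART (also CHRONO) is a repressor that acts by binding BMAL1.

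At BHLHE40, the sequences copied here are those under the 3 summits and around the 2 E-boxes of the widest peak. All are shown 5′ to 3′ on the plus strand of hg19, which is the coding strand of the gene, and capitals mark an E-box (CACGTG) or an E′-box (CACGTT, the variant that differs in its last base), in either orientation. The first 3 windows hold the summit base with 50 bp on each side.
BHLHE40 upstream peak, summit, chr3:5020569-5020669: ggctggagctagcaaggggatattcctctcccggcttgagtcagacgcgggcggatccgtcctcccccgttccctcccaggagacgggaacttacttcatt
BHLHE40 internal peak, summit, chr3:5022130-5022230: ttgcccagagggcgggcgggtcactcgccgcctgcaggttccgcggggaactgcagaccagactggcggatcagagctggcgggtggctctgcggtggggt
BHLHE40 downstream peak, summit, chr3:5028590-5028690: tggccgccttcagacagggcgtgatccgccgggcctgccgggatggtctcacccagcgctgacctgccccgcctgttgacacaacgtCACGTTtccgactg
BHLHE40 upstream peak, E-box 1109 bp before the start, chr3:5019993-5020038: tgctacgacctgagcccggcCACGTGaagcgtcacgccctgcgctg
BHLHE40 upstream peak, E-box 245 bp before the start, chr3:5020857-5020902: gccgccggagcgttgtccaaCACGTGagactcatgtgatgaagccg

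At CIART, the windows under both summits and the 5 E-boxes of the peak at the promoter are shown in the same way, again on the coding strand. The line with 3 E-boxes holds those nearest before the start, and the last line holds the E-box inside the gene.
CIART distal peak, summit, chr1:150208862-150208962: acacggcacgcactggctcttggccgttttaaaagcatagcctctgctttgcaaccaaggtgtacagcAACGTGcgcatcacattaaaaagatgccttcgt
CIART upstream peak, summit, chr1:150254636-150254736: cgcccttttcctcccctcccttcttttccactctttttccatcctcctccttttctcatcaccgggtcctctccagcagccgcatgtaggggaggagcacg
CIART upstream peak, E-box 485 bp before the start, chr1:150254448-150254493: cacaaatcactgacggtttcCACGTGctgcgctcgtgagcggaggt
CIART upstream peak, 3 E-boxes before the start, chr1:150254816-150254933: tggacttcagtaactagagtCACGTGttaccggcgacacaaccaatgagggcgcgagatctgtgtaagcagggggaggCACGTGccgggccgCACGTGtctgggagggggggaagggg
CIART upstream peak, E-box 171 bp after the start, chr1:150255112-150255141: gagggtttgcatCACGTGgcaggtgcgagc

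BHLHE40 lies on the plus strand of chromosome 3 (chr3:5021122-5027008, ENSG00000134107.5_6), and the summits of its 3 peaks lay between 503 bp before its transcription start site and 1632 bp past its end. Of 20163 protein-coding genes, 6.81% had 3 or more summits within the same distance. The strongest peak (chr3:5019554-5021237) was 1684 bp wide, and its summit lay 503 bp before the start, inside the body of the antisense lncRNA gene BHLHE40-AS1. It reached 1568 bp before the start but only 115 bp past it, so most of the interval lay upstream of the gene. Its fold enrichment, the immunoprecipitate signal over the local background as MACS2 computes it, was 10.2, and its −log10 q, where q is the p-value adjusted over the whole call, was 49.9. The second peak (chr3:5022082-5022205) began 844 bases after the first one ended and was 124 bp wide. Its summit lay 1058 bp inside BHLHE40, in no annotated exon of the gene. It was 263 bp after a second annotated start of BHLHE40 and 81 bp before a start site of BHLHE40-AS1. Fold enrichment there was 4.51 and −log10 q was 3.13. The third peak (chr3:5028569-5028795) was 227 bp wide and intergenic, with its summit 1632 bp past the end of the gene. Fold enrichment (3.06) and −log10 q (1.64) placed it at 2501 and 2520 of 2549, among the weakest peaks called. The next summit beyond the window was 280 kb from the gene body, with a fold enrichment of 8.13.

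CIART lies on the plus strand of chromosome 1 (chr1:150254953-150259505, ENSG00000159208.16_11) and had 1 peak at its promoter and 1 far from it. Of protein-coding genes, 14.3% had 2 or more summits within 100 kb. The peak at the promoter (chr1:150253426-150256618) was 3193 bp wide, the third widest of all, and spread nearly evenly about the start, from 1527 bp before it to 1665 bp past it. Its summit lay 267 bp before the CIART start and 104 bp before the start of the lncRNA gene ENSG00000289041, which is read in the opposite direction. Fold enrichment was 10.1 and −log10 q was 55.8. The distal peak (chr1:150208862-150208953) was 92 bp wide, with a summit 46.0 kb before the CIART start, and it was 5.02-fold enriched with −log10 q at 4.69. That summit lay 408 bp before a start of ANP32E, a histone chaperone gene, and 403 bp before the snRNA gene RNU2-17P. It is thus at the promoter of another gene, and the list gives nothing that ties it to CIART besides distance. The next summit beyond the window was 229 kb from the gene body, with a fold enrichment of 6.2.

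**Figure D1:**
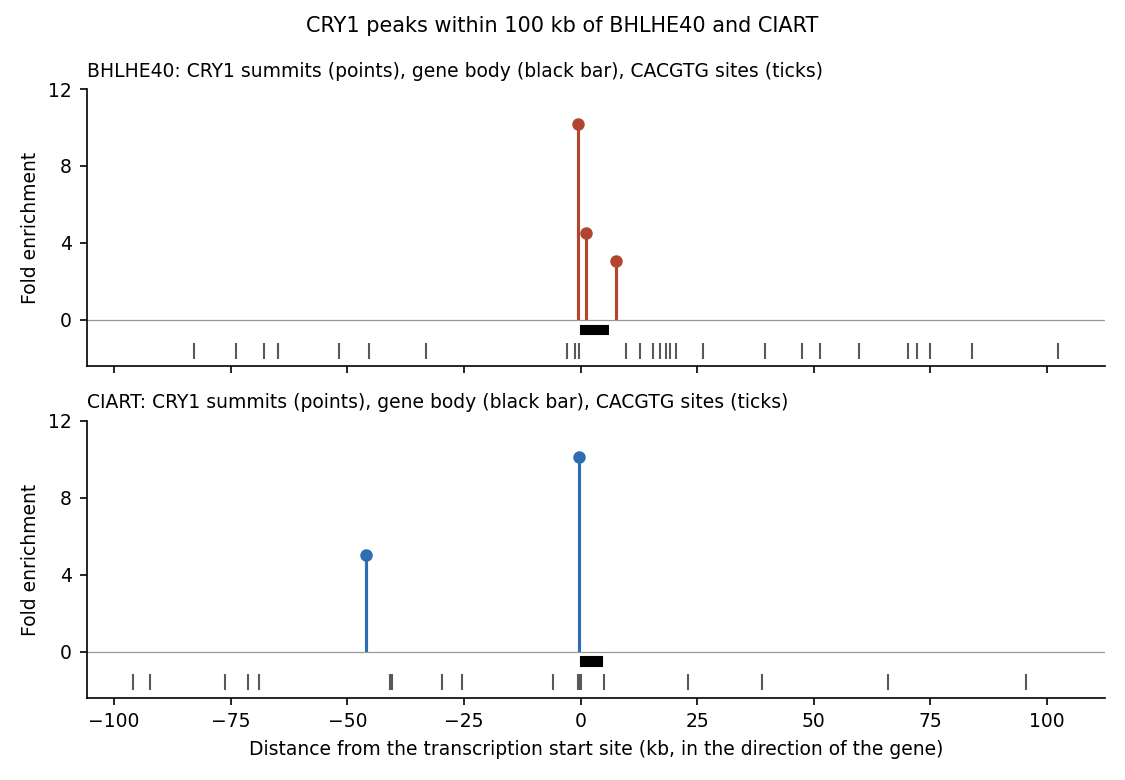
Fold enrichment of CRY1 peaks (y axis) against the distance of their summits from the transcription start site in kb (x axis) for BHLHE40 and CIART, with the gene body as a black bar and each CACGTG as a tick. Peaks of 10.2 and 10.1 stand at the 2 starts, BHLHE40 has weaker peaks inside and just past the gene, and CIART has 1 at 46.0 kb.

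The neighbourhoods of the 2 genes differed in gene content. BHLHE40 was the only protein-coding gene in its window, with 4 other annotated genes beside it. The CIART window held 12 other annotated genes, 7 of them protein-coding, and 1 of the 7, ANP32E, had a member summit in its promoter. With a promoter taken as 1 kb before to 100 bp after any annotated start, 4 of the 5 member summits lay in one, against 54.9% of all summits. By this definition, which stops 100 bp after a start, only the upstream peak of each gene lay in the promoter of the gene itself. The other 2 lay in those of BHLHE40-AS1 and of ANP32E with RNU2-17P.

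The upstream peaks of BHLHE40 and CIART were nearly equal in fold enrichment, at ranks 195 and 199, which placed 92.3% and 92.2% of peaks below them. Other measures placed them higher and apart from each other. By −log10 q they ranked 46 and 35, and by width 17 and 3. The reads behind these values could be recovered from the deposited columns, because fold enrichment and −log10 p together fix both the immunoprecipitate pileup and the background. The CIART summit carried 166 immunoprecipitate reads, the highest number in the list, which it shared with the strongest peaks of PER1, PER2, CRY2 and TEF. The BHLHE40 summit carried 149 reads, 89.8% of that number and rank 18. The median over all peaks was 36 reads.

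The highest number, 166, equals 2 times the smallest peak width of 83 bp. That is the most that reads extended to 83 bp can pile up if 1 read is kept per position and strand, a setting the sources used here do not state. Under it the reads at CIART are a lower limit, and the 17 peaks at 90% or more of the highest number can hardly be ordered by reads. Fold enrichment at these 5 peaks of 166 reads ran from 10.1 to 22.8, and CIART was the lowest of them, with the highest background of the 5, 8 reads. BHLHE40 had a background of 7 reads. Only 3.3% of peaks had a background of 7 or more, and the background used where no local excess was found was 2.23. Counting error on so few background reads is wide. The exact 95% Poisson intervals were 3.45 to 15.8 reads for CIART and 2.81 to 14.4 for BHLHE40. Immunoprecipitate over background, scaled for library size and without the added pseudocount of 1, was 11.3 (exact 95% interval 5.59 to 26.6) at CIART and 11.6 (5.48 to 29.3) at BHLHE40, and the intervals overlapped almost entirely. Set against the genome-wide background instead, the fold was 28.2 at CIART and 25.3 at BHLHE40, at ranks 1 and 18. That fold only rescales the reads, so its ranks are those by reads. All these intervals take reads as free counts and cover counting error in pooled libraries only. If reads were capped at 166, the ratio intervals do not bound the ratios, and their overlap does not show equal enrichment.

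**Figure D2:**
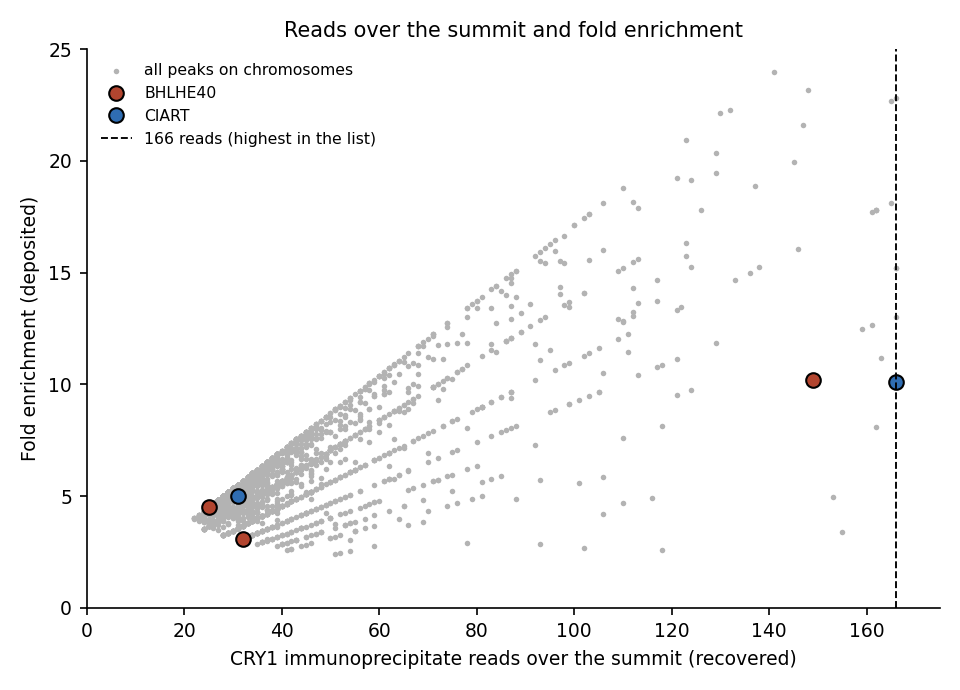
Deposited fold enrichment (y axis) against the recovered number of immunoprecipitate reads over the summit (x axis) for all peaks on chromosomes (grey), with BHLHE40 and CIART peaks in colour and the highest read number, 166, as a dashed line. The 2 upstream peaks lie at the far right (149 and 166 reads) but at folds of 10.2 and 10.1, and the other 3 lie among the weak peaks.

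The 3 weaker peaks carried few reads. The BHLHE40 internal peak had 25 reads (exact 95% Poisson interval 16.2 to 36.9), the BHLHE40 downstream peak 32 (21.9 to 45.2) and the CIART distal peak 31 (21.1 to 44.0). These intervals overlapped, so the 3 could not be ordered by reads. As listed, the internal peak stood at the genome-wide background of 2.23 and the distal peak at 2.56, whereas the downstream peak had 5 background reads. The interval on those 5 (1.62 to 11.7) holds both other values, so the backgrounds could not be ordered beyond counting error either. Its scaled ratio was 3.48, with an interval of 1.35 to 11.4.

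None of the 5 summits had a CACGTG within 50 bp, against 47.8% of all summits. Over whole intervals, 2 of the 5 peaks held at least 1, against 57.4% of all peaks, and these were the 2 upstream peaks. BHLHE40 held 2 E-boxes in its upstream peak, 1109 and 245 bp before the start. They lay 606 bp before and 258 bp after the summit, on either side of it, and spanned 870 bp. CIART held 5, at 485, 117, 59 and 45 bp before the start and 171 bp after it, and the nearest began 150 bp from the summit. The 5 spanned 662 bp, and the pair nearest to the start was separated by 8 bp. The 1 after the start lay in an exon of 1 annotated CIART transcript. Of all peaks, 9 held 5 or more E-boxes, and CIART was the only one of these among the 24 peaks at least 1500 bp wide. Per kb of peak, the upstream peaks held 1.57 (CIART) and 1.19 (BHLHE40) E-boxes, against 2.42 over all peaks. The list had a median width of 181 bp, so these densities are not compared at like width. The 24 peaks at least 1500 bp wide, both upstream peaks included, held a mean of 2.29 E-boxes each, beside 5 at CIART and 2 at BHLHE40.

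**Figure D3:**
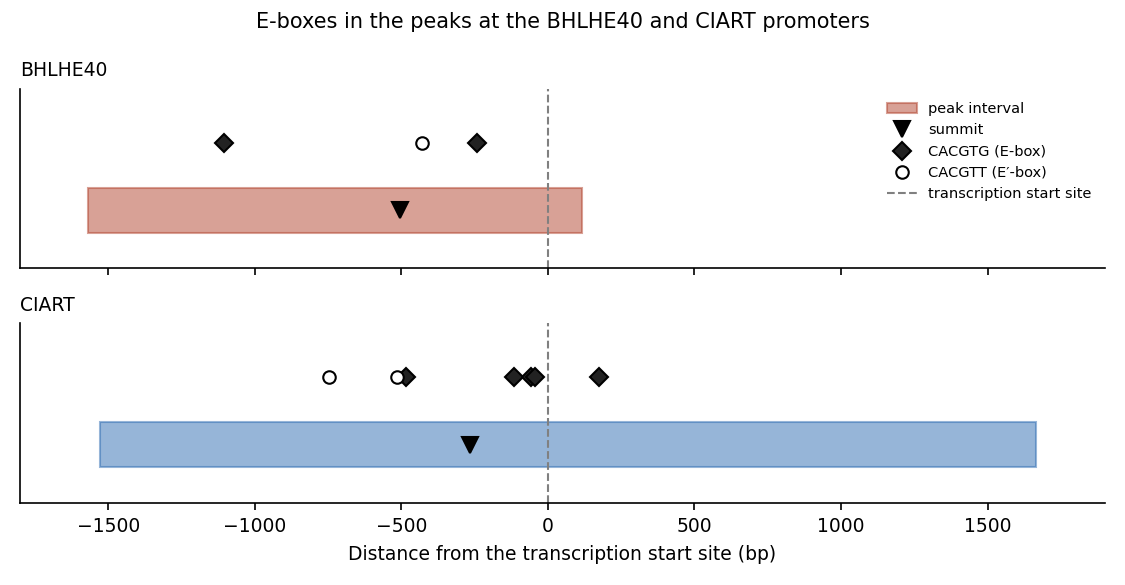
The upstream peaks of BHLHE40 and CIART drawn to scale against distance from the transcription start site in bp, with the interval as a bar, the summit as a triangle, CACGTG as filled diamonds and CACGTT as open circles. The 2 E-boxes of BHLHE40 flank its summit at some distance, whereas 4 of the 5 E-boxes of CIART lie after its summit and 3 of them lie just before the start.

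Wide peaks had a summit E-box more often than all peaks, unlike those of BHLHE40 and CIART. Of the 308 widest peaks 70.5% had one, and of the 81 at least 1000 bp wide 65.4% had one. Of the 24 peaks at least 1500 bp wide, 58.3% had a summit E-box and 91.7% had an E-box somewhere in the interval. Of the 102 peaks with the most reads, ties included, 65.7% had one at the summit. Of the 25 with the most reads, 40.0% had one at the summit and 84.0% one in the interval. Both upstream peaks belong to the widest 24 and the top 25 by reads. Whether the ceiling on reads moved their summits was not tested.

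E-boxes outside the peaks far outnumbered those inside, although E-boxes per base were denser inside. The 100 kb window of BHLHE40 held 28 CACGTG, and 2 of them (7.14%) lay in a peak. The window of CIART held 20, and 5 of them lay in a peak, all in the upstream one. Over the genome 0.686% of 274234 E-boxes lay in a peak. The windows also held more peak sequence, which made up 0.988% of bases at BHLHE40 and 1.61% at CIART, against 0.0274% of the genome. The density of CACGTG in the windows, 1.36 per 10 kb at BHLHE40 and 0.978 at CIART, stood beside 0.967 over the genome. The nearest E-box outside a peak was 2885 bp before the start at BHLHE40 and 5068 bp after it at CIART. In the RefSeq promoter windows of GRCh38, which run from 250 bases before to 50 after the start, both genes were found. CIART held 3 E-boxes there and BHLHE40 held 1. Of all 35116 such promoters, 7.26% held at least 1 and 0.094% held at least 3.

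The other motifs searched, on both strands and within 50 bp of the summit, were found at some of the summits. The E′-box CACGTT was found at 2 of the 5 summits, against 6.63% of all summits, at 37 bp after the BHLHE40 downstream summit and 18 bp after the CIART distal summit. The upstream peak of BHLHE40 held an E′-box 70 bp after its summit, just outside the window, and that of CIART held 2, at 749 and 516 bp before the start. The core of the hypoxia response element, ACGTG or GCGTG, was at the same 2 summits as the E′-box, which contains it on the reverse strand, against 67.4% of all. Each of these summits also held another core outside the E′-box. It began 32 bp before the BHLHE40 downstream summit and 44 bp before the CIART distal summit. The core was not within 50 bp of the upstream summits, but the whole upstream interval held 13 at BHLHE40 and 17 at CIART, where each CACGTG is counted on both strands. So short a sequence recurs in intervals of 1684 and 3193 bp, and no expected number was computed. These counts therefore show no excess of hypoxia elements. The GC box GGGCGG was at the upstream and internal summits of BHLHE40, against 27.0% of all. No member summit held any CANNTG, the general form of the E-box, against 67.6% of all summits. None held a D-box (TTATGNAA, at 0.51% of all summits) or a ROR element (AGGTCA after a run of A or T, 0.118%). Tandem E-boxes 6 bp (0.157%) or 7 bp (0.0392%) apart were missing too. With shares this low, absence at 5 summits is no trait of the members. The AP-1 site TGAGTCA, looked for after the sequences had been read, began 14 bp before the BHLHE40 upstream summit and was found at 2.2% of all summits. A match describes letters in a window and shows no binding by any factor.

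The base composition of the 5 summit windows was not uniform either. The BHLHE40 windows held 61.4%, 71.3% and 67.3% G and C, in the order upstream, internal and downstream. The CIART windows held 57.4% at the promoter and 49.5% at the distal peak. The median over all peaks was 64.4%.

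The strongest peaks of other clock genes gave the frame for those at BHLHE40 and CIART. They were assigned by distance alone, and some lay far from any start of their gene. The distance was 26507 bp at HLF, 14509 bp at CSNK1D and 10368 bp at BTRC. The orders below thus mix peaks at promoters with distant ones. Of 23 other clock genes, 15 had a summit within 100 kb, against 31.1% of protein-coding genes with at least 1. All 7 other repressors (PER1, PER2, PER3, CRY1, CRY2, BHLHE41 and TIMELESS) had one, and none of the 4 activators (CLOCK, BMAL1, BMAL2 and NPAS2) did. The strongest TIMELESS peak was only 114 bp wide with 37 reads, beside a list median of 36 reads. Among nuclear receptors 2 of 4, among output bZIP factors 3 of 4 and among kinases and ubiquitin ligases 3 of 4 had one. Among the 17 genes with a peak, BHLHE40 stood 12 and CIART 13 by fold enrichment of the strongest peak. The other 15 had a median fold of 15.2 and ran from 4.93 (BTRC) to 23.2 (BHLHE41). By width the order was different, with CIART 2, after PER1, and BHLHE40 10, beside a median of 1768 bp for the others. By background CIART was 3 and BHLHE40 4, the latter tied with CRY1 at 7 reads, and the median for the others was 4. By E-boxes in the interval, a count not adjusted for width, CIART was the highest of the 17, since no other held more than 4.

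**Figure D4:**
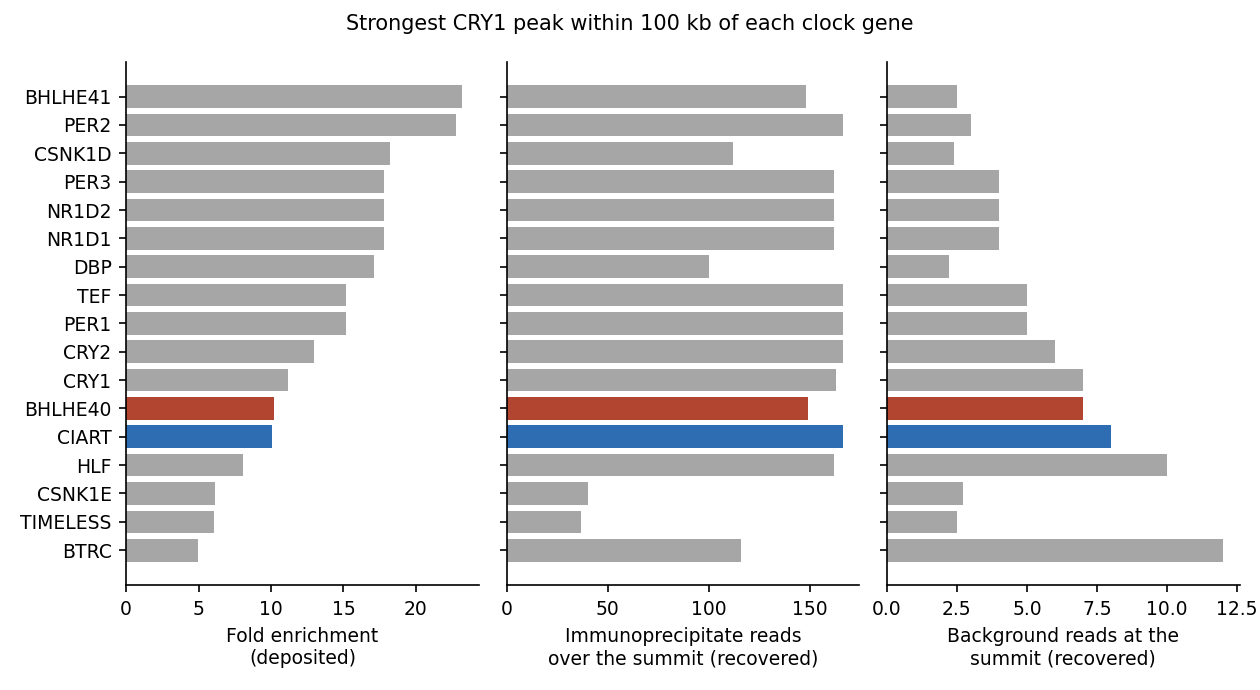
Fold enrichment, recovered immunoprecipitate reads and recovered background reads (x axes) of the strongest CRY1 peak within 100 kb of each of 17 clock genes, ordered by fold, with BHLHE40 in red and CIART in blue. Both sit low by fold (10.2 and 10.1) and their backgrounds (7 and 8) are above most, while reads near 166, the highest in the list, cannot be used to order genes.

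BHLHE41 (DEC2), the paralog of BHLHE40, offered the closest comparison within a family. Its strongest peak within 100 kb (chr12:26265961-26268573) had a fold enrichment of 23.2, with 148 reads over a background of 2.52. BHLHE40 had a fold of 10.2, with 149 reads over a background of 7. Both read numbers lie close to the highest in the list, 166, so their likeness does not show equal signal at the paralogs. The 2 peaks also differed in place and sequence. That of BHLHE41 lay 9272 bp from its nearest own start and had 1 summit E-box and 3 in the interval, whereas that of BHLHE40 lay at the promoter with none at the summit. A missing summit E-box was not particular to BHLHE40 and CIART in this list. Only 6 of the 15 other genes had a CACGTG within 50 bp of the strongest summit, and 10 of 15 had an E-box in the interval. PER1 and PER2, classical targets of CLOCK and BMAL1, had no CACGTG within 50 bp of the strongest summit either. Both of those summits carried 166 reads, the highest number, and E′-boxes were not compared between clock genes.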

How the data were processed

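CRY1 ChIP-seq was analysed in 1 group of 2 immunoprecipitates and 1 input of C4-2 cells. Per the study's methods and the labels, the authors aligned reads to hg19 with Bowtie2 and called peaks with MACS2 on combined replicates at q < 0.05. The deposited list holds, per peak, an interval, a score, a fold enrichment (a ratio), −log10 p and −log10 q values and a summit. Read depth per library was not given in the sources used here, and because replicates were pooled no test or replicate error could be had.

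Members were the peaks with summits within 100 kb of a member gene in GENCODE release 44 (hg19). Members, gene lists and motifs were chosen with earlier results of these data known. Genes were named if they were members, had the nearest start or held a summit in a promoter, or were in the clock list, 1 gene of which is not reported here. Python 3.11.15, numpy 2.4.6, scipy 1.17.1 and pandas 2.3.3 were used.

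Read pileups were recovered by a step chosen after seeing the data. MACS2 gives the fold as pileup plus 1 over background plus 1, and p from a Poisson distribution, so 1 library scale and a whole read number per peak were fitted. A scale of 0.5434 matched −log10 p at all 2551 peaks within 0.001, with 1 whole number possible at 2546, the members included. The immunoprecipitate then had 1.84 times the reads of the control. The background took whole numbers at 1093 peaks, was 2.23 at 540, and lay on the step of an 83 bp extension at the other 918. The use of the input as control follows from the design and was not stated. The search was tested on simulated peaks. Poisson intervals cover counting error only.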

Additional observations from a re-analysis of the deposited data

How the results depend on the processing

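The counts and ranks depended on distance, strength and measure as follows. The 3 peaks at BHLHE40 became 1 once peaks under 5-fold were dropped, and were 2 at q below 0.01 or when peaks within 1 kb were merged. The 2 peaks at CIART became 1 within 10 kb, and were 3 within 250 kb. Summits with an E-box rose from 0 to 2 with 500 bp on each side and to 2 over the whole interval. In both cases these were the upstream peaks. The number was also 2 when CACGTT was counted too, but at the BHLHE40 downstream and CIART distal peaks. It stayed at 0 with 25 or 100 bp on each side and about the peak midpoint. The 4 promoter summits became 3 with protein-coding transcripts only and were 4 under the other definitions. The rank of the BHLHE40 upstream peak, 195 by fold enrichment, was 46 by −log10 q, 17 by width and 129 among promoter peaks, and that of CIART, 199, was 35 by −log10 q, 3 by width and 133 among promoter peaks. By immunoprecipitated reads, a measure added after seeing the data, BHLHE40 ranked 18 and CIART 1, the latter shared by 5 peaks. Fold over the genome-wide background, also added, only rescales the reads and so must give the same ranks. Leaving out a replicate could not be done on a list called on pooled libraries. No paired analysis was possible because the list holds no value per replicate. Reads at CIART are at the ceiling of the list, which limits any rank by reads.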
